A study of Mus musculus with 7 samples.

Results

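Insulin receptor signalling was followed through 8 genes, taken by name from the deposited count table: Insr, Irs1, Irs2, Pik3r1, Akt1, Akt2, Gsk3b and Foxo1. All 8 were present among the 19963 targets of that table and among the 13095 genes tested. RNA was measured in liver of 24-week-old mice by the GeoMx mouse whole transcriptome assay, in which bar-coded probes released by light from a chosen area of a tissue section are counted by sequencing. Of 6 regions, 3 came from mice on FFD and 3 from mice on NCD, diet names that the labels do not spell out. The region notes mark all 6 as WT, all lay on 1 slide of fixed, paraffin-embedded tissue, and all were areas positive for Albumin staining and negative for CLEC4F, a Kupffer cell protein. Sex and strain are not given in the sources used here. The series text states 3 mice per diet but no label ties a region to a mouse, so the p-values measure the spread between regions, which may be technical.

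Insulin binding activates the insulin receptor tyrosine kinase, which phosphorylates the docking proteins IRS1 and IRS2. These recruit phosphoinositide 3-kinase, made of a regulatory and a catalytic subunit, and the lipid it makes brings AKT to the membrane. AKT in turn phosphorylates and inhibits GSK3, which releases glycogen synthase, and phosphorylates FOXO1, which then leaves the nucleus. In liver, nuclear FOXO1 drives genes of glucose production such as G6pc and also Irs2 and Igfbp1, while insulin induces genes of fat synthesis.

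Irs1 and Irs2, the genes of the docking proteins, shared 2 short sequences close to their start sites. Promoter windows from RefSeq (GRCm38.p6), 250 bases before to 50 after each start, were found for 7 of the 8 genes, and Insr was not matched. The insulin response core (CAAAACAA or TTGTTTTG, both strands), a sequence known from the Igfbp1 promoter, occurred in the windows of Irs1 and Irs2 and in no other of the 7, against 2.51% of all 32851 windows. The E-box CACGTG, which reads the same on both strands and was searched after the sequences had been read, also occurred in Irs1 and Irs2 alone among the 7, against 7.15% of windows. The FoxO motif (GTAAACA or TGTTTAC, both strands) was in 3.65% of windows and, among the 7, in that of Akt1, at bases -161 to -155 from the start. Only these letters were counted under that name, so a window without them is not shown to lack a FoxO site. Counted by gene, 2.88% of 27025 genes had the insulin response core in a window, 8.09% the E-box and 4.05% the FoxO motif. The 160 bases before the start are shown for Irs1 (chr1:82291440-82291599, minus strand) and Irs2 (chr8:11008930-11009089, minus strand), since they carry both motifs. Those of Irs4 (chrX:141725218-141725377, minus strand), a further docking protein gene, and of Igfbp1 (chr11:7197627-7197786, plus strand) are shown for comparison. Each runs 5′ to 3′ on the gene's strand, with the insulin response core and the E-box in capitals.
Irs1: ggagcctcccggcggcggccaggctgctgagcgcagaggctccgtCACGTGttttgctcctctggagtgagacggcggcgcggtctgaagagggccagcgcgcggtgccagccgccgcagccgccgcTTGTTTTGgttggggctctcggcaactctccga
Irs2: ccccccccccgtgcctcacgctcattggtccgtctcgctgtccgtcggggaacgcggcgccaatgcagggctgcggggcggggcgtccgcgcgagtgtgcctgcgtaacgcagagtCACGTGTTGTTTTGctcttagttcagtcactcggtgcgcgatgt
Irs4: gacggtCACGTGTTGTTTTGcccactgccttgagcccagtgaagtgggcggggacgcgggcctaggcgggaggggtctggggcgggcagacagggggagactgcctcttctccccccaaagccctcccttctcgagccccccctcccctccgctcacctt
Igfbp1: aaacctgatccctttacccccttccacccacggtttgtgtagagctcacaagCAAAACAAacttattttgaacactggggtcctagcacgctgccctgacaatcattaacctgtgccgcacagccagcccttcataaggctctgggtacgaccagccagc

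In Irs1 the E-box lay at bases -115 to -110 and the insulin response core at -33 to -26. In Irs2 the motifs adjoined, at -44 to -39 and -38 to -31. Both motifs occurred together in 51 windows, or 0.155% of all, from 48 genes that included Irs1, Irs2 and Irs4. The E-box followed directly by TTGTTTTG (or the reverse complement of this) occurred in 2 of the 32851 windows, those of Irs2 and Irs4. The pairing and the joined string were also searched after the sequences had been read. The match in Irs2 was thus known beforehand, and these shares describe the windows and test nothing. Igfbp1 carried the insulin response core at -108 to -101 and no E-box in its window. Among 93 pathway genes with a window the insulin response core occurred in 5, Igfbp1, Irs4, Prkci, Ccng2 and Gab1, against 2.88% of all genes. The E-box occurred in 12 of the 93 and the FoxO motif in 6, against 8.09% and 4.05% of all genes. These matches describe letters in a window and were not set against any measure of binding.

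Of the 8 genes, Pik3r1 and Foxo1 rose in FFD and 0 fell (edgeR quasi-likelihood test, Benjamini-Hochberg adjusted p under 0.05). Over all 13095 genes 17.1% passed the same test, 5.94% higher and 11.1% lower in FFD. At an unadjusted p under 0.05, 2 of the 8 were higher and 2 lower, Irs1 and Irs2, against 33.2% of all genes (10.6% higher and 22.5% lower). The FFD and NCD regions did not overlap for 3 genes higher in FFD and 2 lower, against 12.2% and 24.5% of all genes (36.7% in either direction), and overlapped for the other 3. The median log2 fold change of the 8 genes was 0.12, against -0.11 over all genes. Levels below are CPM, counts scaled for depth, on upper quartile scaled library sizes, and each gene was read by 1 probe, so levels of different genes are not set against each other.

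**Figure D1:**
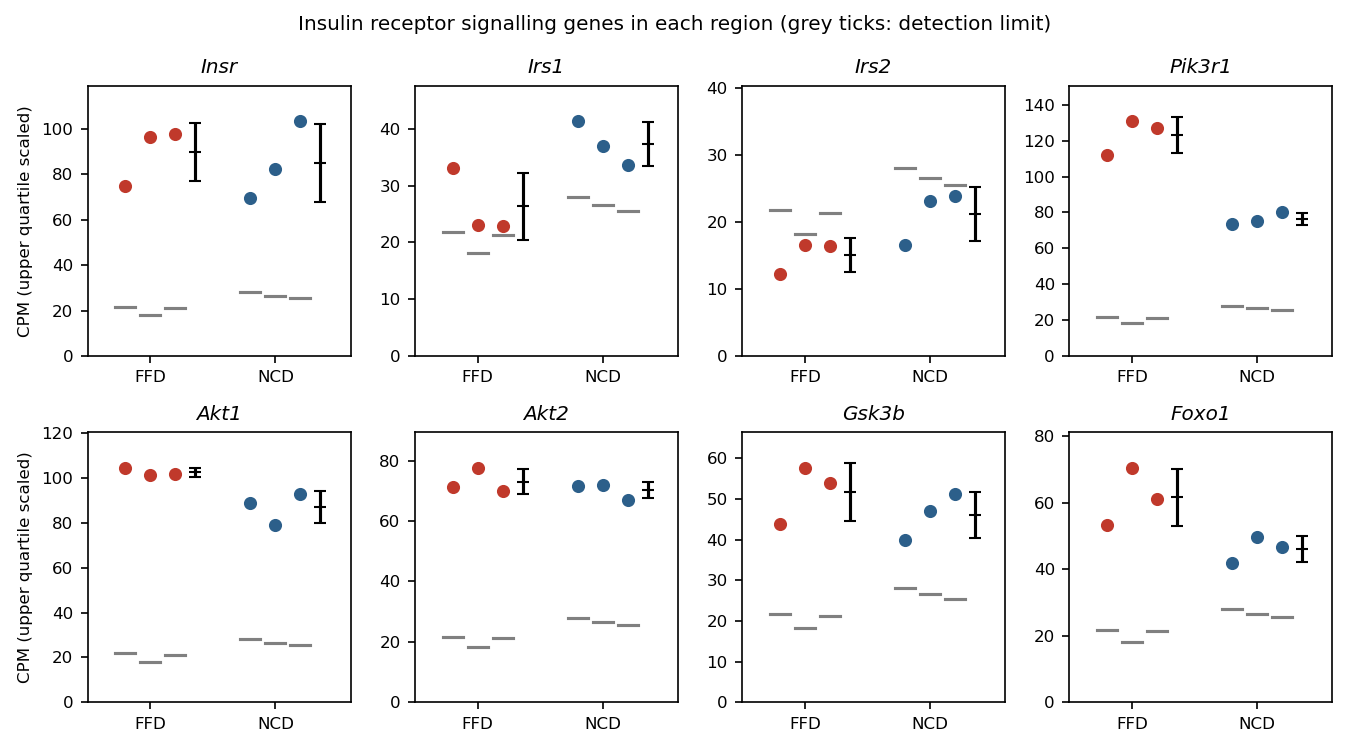
CPM of the 8 genes (y axes, each from 0) in the FFD and NCD regions, regions 1 to 3 from left to right in each diet. Points are regions, black bars the mean and SD of 3, and grey ticks the detection limit of each region. Pik3r1, Foxo1 and Akt1 lay higher in every FFD region than in any NCD region, and Irs2 lay under the limit in all 6.

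Several measures of the regions moved with diet. FFD regions held 1194 ± 102 nuclei and NCD regions 1818 ± 106 (SD, n = 3 each). Counts over tested genes were 2484982 to 2980639 in FFD and 2069102 to 3491371 in NCD. Target counts per deduplicated read were 1.20, 1.51 and 1.01 in FFD 1 to 3 and 0.996 to 0.997 in NCD. In FFD 1 and FFD 2 the counts thus exceeded the deduplicated reads by a wide margin, the reason is not given in the sources used here, and its effect on the FFD values was not tested beyond leaving these regions out. The negative probes, which match no mouse transcript, were at 0.193 ± 0.0184 of the upper quartile count in FFD and 0.252 ± 0.0120 in NCD. For nuclei, counts per read and negative probe level the diets did not overlap (exact two-sided permutation p = 0.1 each and adjusted p = 0.15 over 9 measures, where 0.1 is the lowest p possible with 3 regions a diet). The same held, with the same p-values, for area, the albumin share of counts and the number of genes above 2 times the negative probe level. That number was 9312 ± 777 in FFD and 8044 ± 165 in NCD, while area and the albumin share were lower in FFD. NCD 1 and NCD 2 differed least of all pairs, with a chi-square per degree of freedom of 1.27 against 5.13 to 7.89 for the other pairs within a diet, so results are also given with these regions summed. All 7 tested hepatocyte markers lay above the detection limit, defined as 2 times the negative probe level, in all regions of both diets. Of these 7, 0 rose and 3 fell in FFD, and their summed level was 45708 to 73265 CPM in FFD and 88175 to 122938 in NCD. Albumin itself (Alb) made up 3.67 ± 1.10% of counts in FFD and 6.48 ± 1.11% in NCD (log2 fold change -0.93, adjusted p = 0.0648). Of other cell types, 6 of 10 Kupffer cell and macrophage, 6 of 7 lipid-associated macrophage and 6 of 8 stellate cell markers rose. Their summed levels were 1289 to 1862, 630 to 1443 and 705 to 1242 CPM in FFD, against 831 to 1108, 257 to 384 and 373 to 402 CPM in NCD. Of 6 endothelial markers 1 rose and 1 fell, of 5 lymphocyte markers 1 rose and 1 fell, and of 4 neutrophil markers 0 rose and 1 fell. No marker was at 0 counts, and 0 of 2 cholangiocyte markers lay above the limit in all regions of either diet. These regions hold mixed RNA, so fewer cells of a type and less RNA per cell cannot be told apart, and the part of other cells in the results below was not tested.

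Insr (gene ID 16337, GRCm38 chr8:3150922-3279649) encodes the insulin receptor. Its level was 75.1, 96.3 and 98.0 CPM in FFD 1 to 3 and 69.5, 82.4 and 103 CPM in NCD 1 to 3. The diets overlapped, and the highest and the lowest region were both NCD. Means were 89.8 ± 12.7 CPM in FFD and 85.1 ± 17.1 CPM in NCD, a log2 fold change of 0.07 (95% interval -0.27 to 0.40, adjusted p = 0.801), so a change of receptor RNA was not detected and one inside that interval remains possible. Without NCD 1 the log2 fold change turned to -0.05.

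Irs1 (gene ID 16367, chr1:82233105-82291439) and Irs2 (gene ID 384783, chr8:10984681-11008929) encode the docking proteins between receptor and lipid kinase. Irs1 was at 33.2, 23.1 and 22.9 CPM in FFD and 41.3, 37.0 and 33.6 CPM in NCD. Every FFD region was lower than every NCD region, FFD 1 by a small margin. The log2 fold change was -0.49 (SE 0.17, interval -0.85 to -0.14) with an unadjusted p of 0.0100 and an adjusted p of 0.0553, which missed the threshold. It passed in 4 of 18 alternatives, among them leaving out FFD 1 (-0.69, adjusted p = 0.0177) or NCD 3 (-0.57, adjusted p = 0.0446). As a multiple of the negative probe count of its region, Irs1 was at 3.05, 2.54 and 2.15 in FFD and 2.95, 2.78 and 2.63 in NCD, where the diets overlapped.

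Irs2 was at 12.2, 16.5 and 16.5 CPM in FFD and 16.5, 23.1 and 23.8 CPM in NCD. The FFD regions lay lower, with the highest FFD and the lowest NCD region nearly equal. Its counts were 32, 53 and 41 in FFD and 34, 55 and 76 in NCD, all under the detection limit of 53.1 to 58.4 counts in FFD and 57.7 to 81.3 in NCD. The log2 fold change was -0.51 (SE 0.20, interval -0.92 to -0.09, adjusted p = 0.0837). As a multiple of the negative probe count it was at 1.12 to 1.82 in FFD and 1.18 to 1.87 in NCD. The 2258 genes at or under the limit in all 6 regions had a median log2 fold change of -0.33, with 1 called higher and 242 lower, against a median of -0.03 for the 6600 genes above it in all 6. Relative to the negative probes the log2 fold change was -0.11 for Irs1 and -0.12 for Irs2. Irs4, which shares the adjoining motifs of Irs2, had 26, 39 and 29 counts in FFD and 44, 38 and 48 in NCD, under the limit in all regions, and was not tested.

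Pik3r1 (gene ID 18708, chr13:101680761-101768217), which encodes the regulatory subunits p85-alpha, p55-alpha and p50-alpha of phosphoinositide 3-kinase, had the largest change of the 8 genes. Its level was 112, 131 and 127 CPM in FFD 1 to 3 and 73.4, 75.3 and 80.3 CPM in NCD 1 to 3. Every FFD region lay well above every NCD region. Means were 123 ± 9.99 CPM in FFD and 76.3 ± 3.55 CPM in NCD, a rise of 1.61-fold (log2 0.69, SE 0.13, interval 0.42 to 0.96, adjusted p = 0.00205). It passed in 18 of 18 alternatives, with log2 fold changes of 0.65 to 1.09 and adjusted p-values up to 0.0207. The 3 genes whose pattern over the 6 regions was closest, by the root mean square difference of centred log2 levels among 6599 genes, were Actn1 (0.0303), an actin crosslinker, Capzb (0.0498), an actin capping protein subunit, and Selenow (0.0511), a selenoprotein.

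Akt1 (gene ID 11651, chr12:112653821-112674884) and Akt2 (gene ID 11652, chr7:27591552-27640826) encode the kinase that relays the signal, Akt2 being the form most tied to insulin action in liver. Akt1 was at 104, 101 and 102 CPM in FFD and 89.0, 79.1 and 92.8 CPM in NCD. The FFD regions were close together and all above the NCD regions. Means were 102 ± 1.86 CPM in FFD and 87.0 ± 7.09 CPM in NCD, and the log2 fold change of 0.23 (interval -0.03 to 0.50, adjusted p = 0.204) did not pass. Akt2 was at 71.3, 77.6 and 69.9 CPM in FFD and 71.5, 71.9 and 67.1 CPM in NCD. The diets overlapped, with a log2 fold change of 0.06 (interval -0.20 to 0.32, adjusted p = 0.769).

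Gsk3b (gene ID 56637, chr16:38089001-38246084), 1 of a pair of kinases that inhibit glycogen synthase, was at 43.8, 57.7 and 53.8 CPM in FFD and 39.9, 47.1 and 51.1 CPM in NCD. The diets overlapped, with FFD 1 below NCD 2 and NCD 3. The log2 fold change was 0.16 (interval -0.14 to 0.47, adjusted p = 0.454).

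Foxo1 (gene ID 56458, chr3:52268337-52350109) encodes the transcription factor that AKT keeps out of the nucleus. It was at 53.4, 70.4 and 61.0 CPM in FFD and 41.8, 49.6 and 46.7 CPM in NCD. All FFD regions lay above all NCD regions, FFD 1 by the smallest margin. Means were 61.6 ± 8.55 CPM in FFD and 46.1 ± 3.95 CPM in NCD, a rise of 1.34-fold (log2 0.42, SE 0.14, interval 0.13 to 0.72, adjusted p = 0.0488). The call was close to the threshold and held in 7 of 18 alternatives. It was lost without FFD 2 (0.31, adjusted p = 0.182), FFD 3 (0.43, 0.0742), NCD 1 (0.36, 0.165), NCD 2 (0.47, 0.0961) or NCD 3 (0.43, 0.0676), while the log2 fold change stayed positive in all 18. The closest patterns were those of Cpq (0.0382), a secreted peptidase, Eif4b (0.0542), a translation initiation factor, and Fam107b (0.0580).

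**Figure D2:**
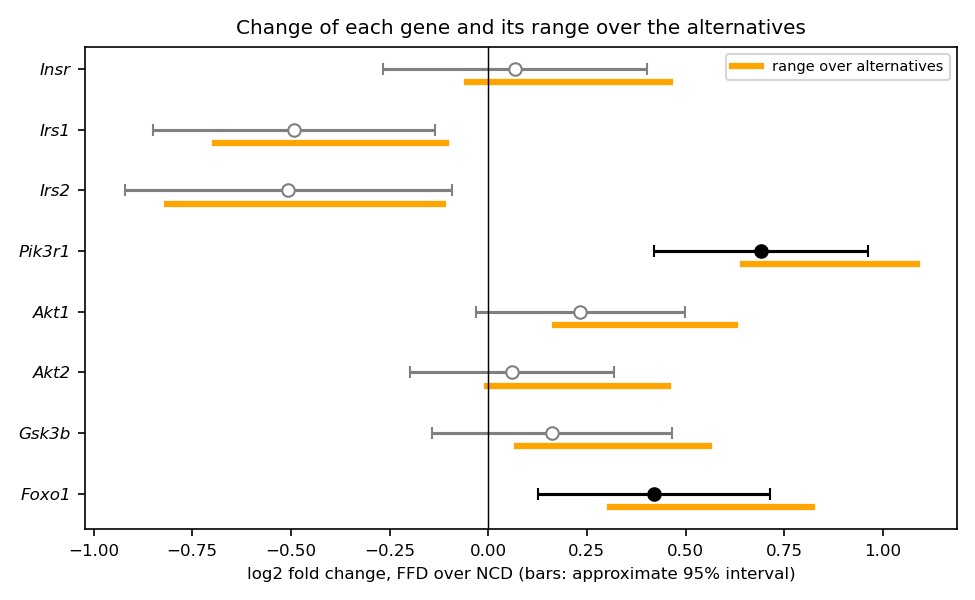
Log2 fold change of each gene, FFD over NCD (x axis), with its approximate 95% interval, filled black where the adjusted p is under 0.05. Orange bars span the values under the alternative settings. The interval and the orange bar of Pik3r1 and Foxo1 both lie above 0, and both lie below 0 for Irs1 and Irs2. The intervals are not adjusted for the number of genes. Irs1 and Irs2 did not pass the adjusted threshold, and Irs2 lay under the detection limit in every region.

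The regions also differed within each diet in ways that several of the genes shared. FFD 1 was the lowest FFD region and NCD 1 the lowest NCD region for Insr, Pik3r1, Gsk3b and Foxo1, and likewise for Irs2. For Irs1 the order was turned, with FFD 1 and NCD 1 the highest of their diets. By the same measure of likeness over the 6 regions, the pattern of Insr was closest to those of Igfbp4 (0.0349), an IGF binding protein, F5 (0.0408), a coagulation factor, and Dbp (0.0544), a clock-controlled transcription factor. Irs1 was closest to Ppp1r35 (0.0542), Rbmx (0.0613) and Cebpe (0.0619), and Irs2, with larger differences, to Igfals (0.102), Il1rap (0.107) and Rab4a (0.108). Patterns close to that of Akt1 were Kpnb1 (0.0303) and Cdk11b (0.0325). Akt2 was closest to Ube2d1 (0.0206), Snx4 (0.0311) and Mtg2 (0.0342), and Gsk3b to Supt6 (0.0384), Pip5k1c (0.0408) and Ankhd1 (0.0453). These likenesses over 6 regions share libraries, depth and diet, and are given as a description.

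Ratios of counts within a region do not depend on scaling between regions, and 6 pairs of related genes were tested by exact permutation, two-sided. The log2 ratio of Foxo1 to its relative Foxo3 was 0.16, 0.15 and 0.07 in FFD and -0.27, -0.29 and -0.41 in NCD. Every FFD region had a higher ratio than every NCD region, with means of 0.13 ± 0.05 in FFD and -0.32 ± 0.08 in NCD (permutation p = 0.1, adjusted p = 0.3 over 6 pairs). Foxo3 itself had a log2 fold change of -0.03 (adjusted p = 0.892), whose sign turned with the scaling, to 0.06 under TMM and 0.36 under negative probe scaling. The log2 ratio of Pik3r1 to Pik3ca, a catalytic subunit, averaged 2.80 ± 0.15 in FFD and 2.45 ± 0.15 in NCD (permutation p = 0.1, adjusted p = 0.3). Pik3ca lay under the detection limit in all 6 regions, and with background subtracted the difference turned from 0.34 to -2.51, so this ratio has no settled direction.

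In the other 4 pairs the diets overlapped. Both Irs2, in all 6 regions, and Igf1r, in 1 region of each diet, were under the detection limit. The log2 ratio of Akt1 to Akt2 differed by 0.18 between FFD and NCD (permutation p = 0.2, adjusted p = 0.4), that of Gsk3b to Gsk3a by 0.21 (permutation p = 0.4, adjusted p = 0.6) and that of Insr to the IGF1 receptor gene Igf1r by 0.35 (permutation p = 0.5, adjusted p = 0.6). The log2 ratio of Irs1 to Irs2 was 1.42, 0.47 and 0.47 in FFD and 1.30, 0.67 and 0.49 in NCD. The diets overlapped widely, and the difference of -0.03 (permutation p = 0.8, adjusted p = 0.8) turned to 0.15 with background subtracted, so no direction is read from it.

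**Figure D3:**
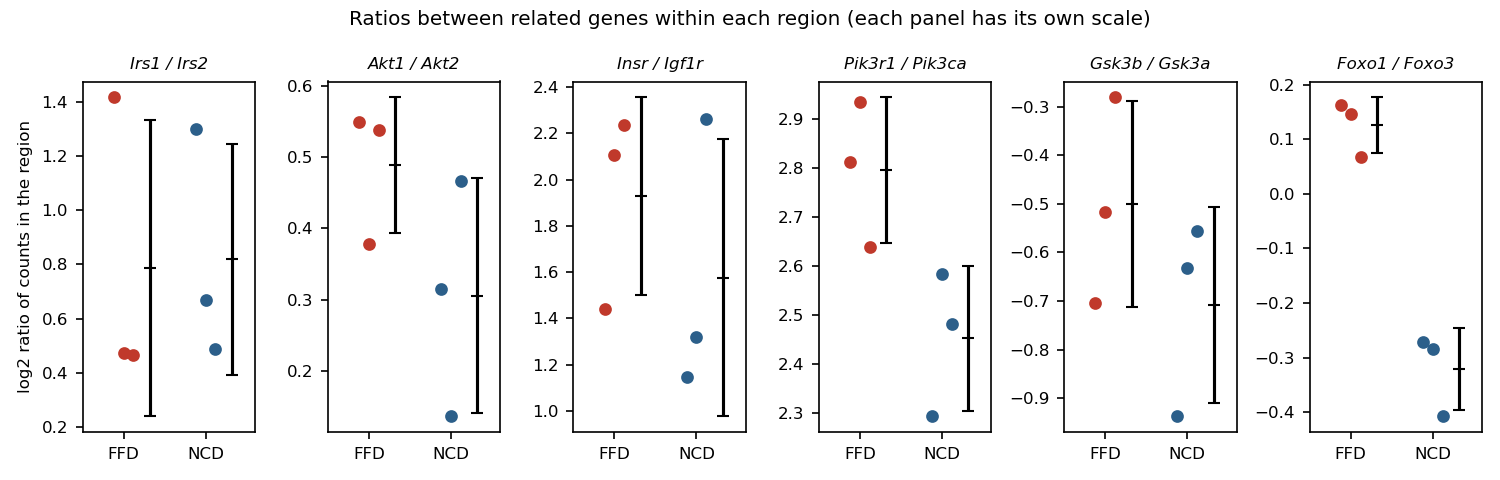
Log2 ratio of the counts of 2 related genes within each region (y axis, a scale of its own in each panel), FFD left and NCD right in each panel. Points are regions and black bars the mean and SD of 3. The diets separate for Foxo1 over Foxo3 and, in counts without background subtraction, for Pik3r1 over Pik3ca, where Pik3ca is under the detection limit in all 6 regions. They overlap for the other 4 pairs.

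Around these 8 genes, 11 lists of pathway genes held 106 tested genes, of which 9 rose and 12 fell in FFD, with a median log2 fold change of -0.05, against 5.94% and 11.1% of all genes and a median of -0.11. The balance turned with scaling, to 11 higher and 7 lower under TMM, 12 and 7 under total counts and 33 and 6 under negative probes. Among 8 other receptors and adaptors 0 rose and 1 fell: the insulin receptor-related gene Insrr (-0.51, SE 0.17, adjusted p = 0.0494), which lay under the detection limit in all 6 regions and lost the call under TMM scaling (-0.41, adjusted p = 0.103). Insrr passed in only 3 of 17 alternatives, and was also lost with background subtracted and without any 1 region other than NCD 3. Of 6 other lipid kinase subunits 0 passed, with Pik3ca at 0.35 (adjusted p = 0.192) and Pik3cb at 0.34 (adjusted p = 0.116). Among 7 AKT kinases and activators 0 rose and 2 fell, both subunits of mTORC2, the complex that phosphorylates AKT: Rictor (-0.53, adjusted p = 0.0277) and Mapkap1 (-0.40, adjusted p = 0.0407). Both lost the call under TMM scaling (-0.43, adjusted p = 0.0641, and -0.30, adjusted p = 0.122), and Mapkap1 also without any 1 region other than NCD 3. Rictor lost it without FFD 2, NCD 1 or NCD 2 as well (adjusted p = 0.118, 0.0525 and 0.128).

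Of 15 negative regulators 1 rose and 0 fell. Prkcd, a protein kinase C that can phosphorylate IRS1, averaged 28.8 ± 3.64 CPM in FFD and 18.2 ± 0.578 CPM in NCD (log2 0.65, adjusted p = 0.0139) and was not above the limit in any NCD region. Its call was lost without NCD 2 (0.66, adjusted p = 0.0528). Of 2 insulin clearance genes Ceacam1, whose protein promotes uptake of insulin by hepatocytes, fell to 47.3 ± 17.9 CPM in FFD, against 103 ± 3.89 CPM in NCD (log2 -1.14, SE 0.21, adjusted p = 0.00183). Its regions were at 55.3, 26.8 and 59.8 CPM in FFD and 103, 108 and 100 CPM in NCD, with FFD 2 lowest.

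Of 9 genes of the mTORC1 arm 1 rose, Rheb, which encodes the activator of that complex (0.41, adjusted p = 0.0346), and 0 fell. Of 9 FoxO family and partner genes 1 rose, Ywhaz, a 14-3-3 protein of the family that holds phosphorylated FoxO in the cytoplasm (0.51, adjusted p = 0.0176), and 0 fell. Rheb lost the call when any single region was left out (adjusted p up to 0.150). Ywhaz lost it without FFD 2 (0.44, adjusted p = 0.0725), NCD 1 (0.49, adjusted p = 0.0596) or NCD 2 (0.43, adjusted p = 0.104). Of 12 genes of the Ras and MAP kinase arm, the other branch below the receptor, 0 passed, with Hras at 0.16 (adjusted p = 0.409) and Sos1 at 0.00 (adjusted p = 0.998).

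Of 14 FoxO target genes 1 rose and 4 fell, with a median of -0.23. G6pc, the last enzyme of glucose release, was at 188, 185 and 158 CPM in FFD and 464, 510 and 316 CPM in NCD. All FFD regions were far below all NCD regions, with a log2 fold change of -1.28 (adjusted p = 0.000196). Sesn3, a sestrin that is induced by FoxO factors, fell by 1.35 on the log2 scale (SE 0.15), and Bcl6, a transcriptional repressor, fell by 1.31 (SE 0.18). Klf15, a regulator of amino acid use, fell by 0.58 (adjusted p = 0.0226), a call lost under TMM scaling (adjusted p = 0.0627) and without FFD 1, NCD 1 or NCD 2 (adjusted p = 0.0714, 0.0621 and 0.102). The gene that rose, named after its values were seen, was the stress gene Gadd45a (0.57, adjusted p = 0.0318). Whether the Gadd45a call held under the alternatives was not examined. Igfbp1, whose promoter is shown above, was at 32.8, 82.0 and 148 CPM in FFD and 53.0, 59.3 and 41.4 CPM in NCD. FFD 1 was the lowest of all 6 regions and FFD 3 the highest, and the log2 fold change of 0.78 (SE 0.34, adjusted p = 0.123) did not pass.

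Of 14 insulin-induced lipogenic genes 2 rose and 2 fell, with a median of -0.28, and the members moved in opposite directions. Scd1, a fatty acid desaturase, was at 7965, 3305 and 5890 CPM in FFD and 1536, 1595 and 2936 CPM in NCD. The lowest FFD region lay just above the highest NCD region, and the rise was 2.83-fold (adjusted p = 0.00411). Angptl8, a secreted protein induced by feeding and insulin, was at 62.5, 65.8 and 92.7 CPM in FFD and 292, 344 and 243 CPM in NCD, a fall of 3.98-fold (log2 -1.99, SE 0.18). Mlxipl, which encodes the glucose-responsive factor ChREBP, fell by 0.58 (adjusted p = 0.0201), a call lost under TMM scaling (adjusted p = 0.0619) and without FFD 1 or NCD 2 (adjusted p = 0.0681 and 0.0769).

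Of 10 glycogen genes 3 rose and 2 fell, with a median of -0.07. Both of the protein phosphatase 1 targeting subunits named here passed, in opposite directions. Ppp1r3c fell to 23.3 ± 5.34 CPM in FFD, against 49.7 ± 12.8 CPM in NCD (log2 -1.06, adjusted p = 0.00253), and Ppp1r3b rose by 0.50 (adjusted p = 0.0250). Phka2, the liver alpha subunit of phosphorylase kinase, fell by 0.73 (adjusted p = 0.0101) and was not above the limit in any FFD region. It passed in 14 of 18 alternatives. The call was lost under total count scaling (adjusted p = 0.0517), negative probe scaling, the DESeq2 test and background subtraction (adjusted p up to 0.172). Ugp2, which makes UDP-glucose, rose by 0.68 (adjusted p = 0.0226), and so did the branching enzyme gene Gbe1, named after its values were seen, by 0.45 (adjusted p = 0.0495). The Gbe1 call lay close to the threshold, and whether it held under the alternatives was not examined. Ppp1r3b lost the call without FFD 1, FFD 2 or any NCD region (adjusted p up to 0.0720), and Ugp2 without FFD 1, NCD 1 or NCD 2 (adjusted p up to 0.118).

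**Figure D4:**
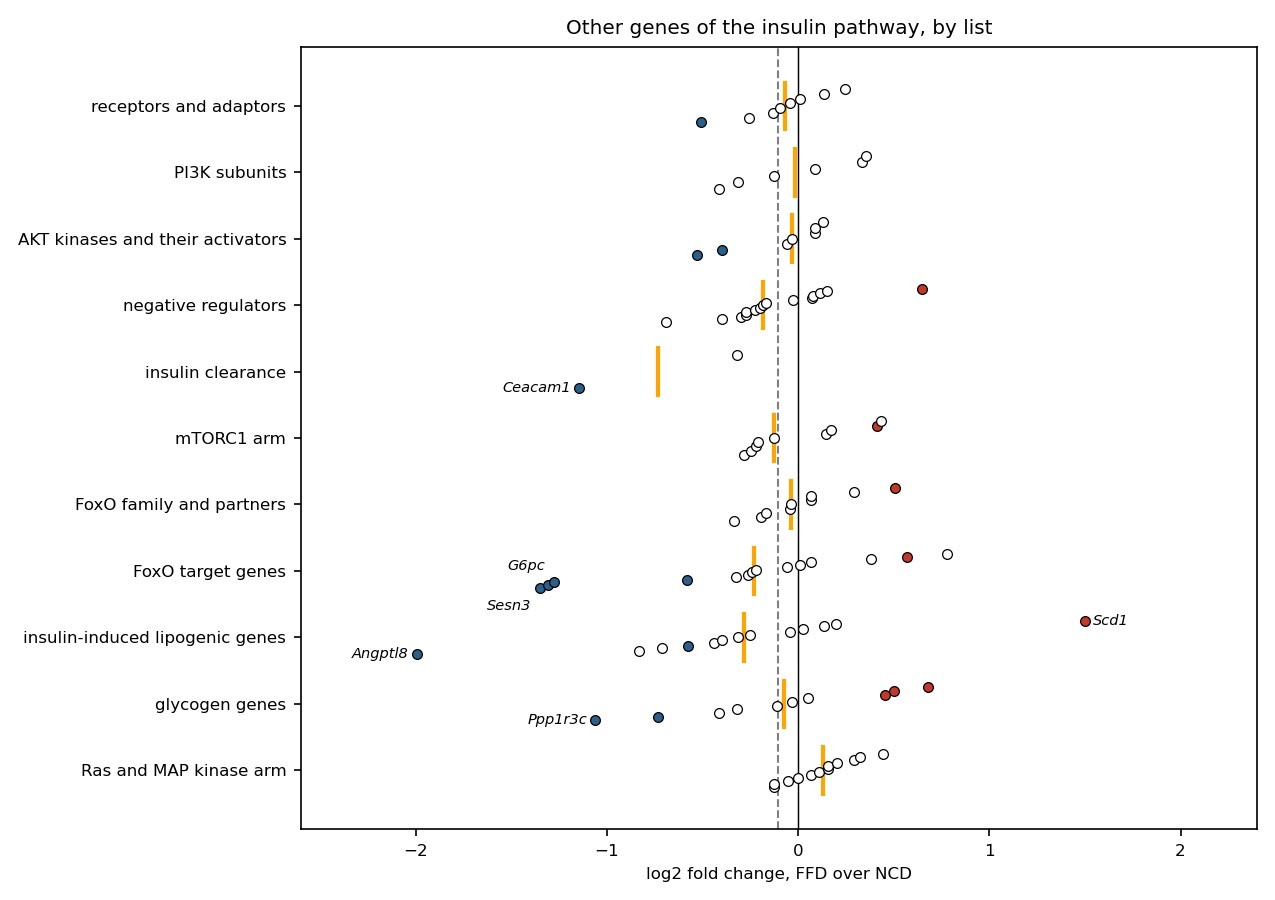
Log2 fold change, FFD over NCD (x axis), of the other pathway genes, 1 row per list. Red points rose and blue points fell (adjusted p under 0.05), orange ticks are list medians and the dashed line is the median of all genes, -0.11. The unlabelled blue point beside G6pc and Sesn3 is Bcl6. Scd1 lies far to the right of its list and Angptl8 far to the left. 1 gene of that list is not drawn.

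Of the 19 named pathway genes that passed, 8 kept the call in all alternatives with a value, among them Sesn3, G6pc, Bcl6, Angptl8, Scd1, Ceacam1 and Ppp1r3c. For these and Pik3r1 the call did not depend on the settings run or on a single region.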

How the data were processed

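RNA was counted in 3 FFD and 3 NCD liver regions. The authors deposited expected counts per target after probe quality control and a filtered table of the same expected counts for 13099 targets, whose filter rule is not stated. A signal deposited by the authors as Q3 divides the filtered counts by each region's 75th percentile. Nuclei and reads are deposited counts, and per the file headers the saturation of sequencing is a percent. GRCm38 and edgeR appear in the submitters' processing notes, with versions and roles not given in the sources used here.

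The 13095 genes of the filtered table were tested (3 were rounded to whole counts), leaving out 4 targets that are not genes. Such targets, 12 in the full table, held 0.0145 to 0.0192% of counts. The test was edgeR 4.0.16 quasi-likelihood in R 4.3.3 with upper quartile scaling and a diet term, and p-values were adjusted by Benjamini-Hochberg over all genes, with a threshold of 0.05. Between regions of a diet the biological coefficient of variation came to 12.0%. SE is the log2 fold change over the square root of F, and intervals are approximate. Depth was 2069102 to 3491371 counts per region, and the counting error of a count is Poisson. In simulated data of these depths 42% of genes changed 1.5-fold and 92% of genes changed 2-fold were called. The simulation changed 50 of 13095 genes at each fold, fewer in all than the 2237 called in the data. The share of changed genes found in the data may therefore differ. limma 3.58.1 and DESeq2 1.42.0 served alternatives, as did other scalings and filters, background subtraction and leaving out each region.

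The members and lists were chosen with earlier results of these data known. Named were all members, from each list up to 4 called genes by smallest p or its first 2, the ratio partners, the 3 closest patterns among genes above the limit in all regions, and Alb. A no template control was left out, and some genes that the naming rule picked are left out of the text.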

Additional observations from a re-analysis of the deposited data

How the results depend on the processing

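Scaling moved the median log2 fold change of all genes by 0.098 under TMM and under DESeq2 size factors, 0.114 under total counts and 0.390 under negative probes, where higher calls gained on lower ones. Against 778 higher and 1459 lower genes, TMM gave 1138 and 893, DESeq2 size factors 1131 and 894, total counts 1129 and 604, negative probes 3632 and 206, the DESeq2 test 762 and 467, background subtraction 723 and 795, and FFD 3 as the only FFD region 431 and 386. Genes past the threshold were 3838, 1229, 1425 and 817 with negative probe scaling, DESeq2, NCD 1 and NCD 2 summed and FFD 3 alone, and 1013 to 2631 with a region left out. The settings with NCD 1 and NCD 2 summed and with FFD 3 alone were chosen after seeing the data. Pathway genes past it were 39 with negative probe scaling (33 higher, 6 lower, against 9 and 12), 12 with NCD 1 and NCD 2 summed and 9 to 19 with a region left out. Of the 8 genes, 5 passed under negative probe scaling and 1 under DESeq2, the filter on the detection limit, background subtraction, the summed NCD regions and FFD 3 alone, and 1 to 3 with a region left out. Under negative probe scaling Akt1 (0.62), Akt2 (0.46) and Gsk3b (0.56) passed. Foxo1 missed it at 0.52 with DESeq2, 0.41 with limma and with the NCD regions summed, 0.40 with the detection limit filter and with FFD 3 alone and 0.54 with background subtracted, and ranged from 0.31 to 0.51 with a region left out. Irs1 passed at -0.52 with limma and -0.49 with edgeR's robust option, with a range of -0.69 to -0.40 with a region left out. Insr ranged from -0.0535 to 0.24 with a region left out, and Akt2 was at -0.00397 with FFD 3 alone. The ratio of Irs1 to Irs2 differed by 0.15 with background subtracted and by -0.35 to 0.21 with a region left out, and that of Pik3r1 to Pik3ca by -2.51 with background subtracted, where Pik3ca counts meet the floor of 1. Signs turned for Foxo3 at 0.0639 (TMM), 0.0636 (DESeq2 size factors), 0.0649 (DESeq2), 0.0813 (total), 0.36 (negative probes), 0.0230 (no filter) and 0.00414 (FFD 3 alone), with -0.13 to 0.0724 with a region left out. They turned for Gsk3a at 0.0673 (TMM), 0.0669 (DESeq2 size factors), 0.0665 (DESeq2), 0.0841 (total), 0.37 (negative probes) and 0.0268 (no filter), with -0.13 to 0.0421 with a region left out. They turned for Igf1r at 0.13 (negative probes), and for Sos1 at -0.0213 (detection limit filter), -0.00456 (background subtracted), -0.0406 (NCD summed) and -0.0958 (FFD 3 alone), with -0.0555 to 0.13 with a region left out. The causes were not tested. Irs2 has no value under the detection limit filter and no adjusted p with DESeq2. Where 1 FFD region was used, it was assumed to vary like the NCD regions. Low counts limit Irs1 and Irs2 most. No paired analysis was possible because no region number is shared between the diets.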
